A study of Mus musculus with 22 samples.

Results

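Immature neutrophils that carried the granule transcripts Ngp and Camp at a high level were examined in single-cell RNA sequencing (scRNA-seq) of the mouse olfactory epithelium (OE), the lining of the nose that holds the olfactory sensory neurons. A cell was kept when it had more than 500 genes, more than 1500 unique molecular identifiers (UMIs, the count of RNA molecules captured) and less than 20% of its UMIs from mitochondrial genes. It was called a neutrophil when S100a8 and S100a9 together made up 5% or more of its UMIs, and an immature neutrophil when Ngp and Camp together made up 3% or more as well. These limits found 1895 immature neutrophils among 2785 neutrophils, 25185 kept cells and 32293 barcodes. The remaining 890 neutrophils, with Ngp and Camp under 3%, are called mature neutrophils.

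The scRNA-seq came from 4 WT (Upf3b+/y) and 4 Upf3b-null (Upf3b-/y) untreated adult male mice of C57BL/6J background, with 1 library per mouse. Upf3b, an X-linked gene, encodes a factor of nonsense-mediated RNA decay (NMD), and the null allele was in all cells of the animal and not confined to neurons. RNA-seq of sorted mature olfactory sensory neurons (mOSNs) was made from 4 WT and 4 Upf3b-null pools of mice that also carried Omp-Cre, which is driven by the olfactory marker protein gene of mOSNs, and the R26-eYFP reporter used for the sort. RiboTag RNA, which was bound to ribosomes tagged in the Omp-Cre lineage and pulled down from homogenised OE, was made from 3 WT and 3 Upf3b-null pools. In the scRNA-seq libraries the total ranged from 5024031 to 27673674 UMIs, and the members of 1 mouse held between 25548 (WT 3) and 2778799 UMIs (null 4).

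Neutrophils build their granules in order while they mature in the bone marrow. Primary granules with myeloperoxidase and serine proteases are filled at the promyelocyte stage, secondary granules with lactoferrin, cathelicidin and lipocalin 2 are filled at the myelocyte and metamyelocyte stages under the transcription factor C/EBP epsilon, and gelatinase granules come last. Division stops after the myelocyte stage, and the chemokine receptor Cxcr2, the cytokine Il1b and other genes of circulating neutrophils come on as the cell leaves the marrow.

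The proximal promoters of 4 granule genes with wide gaps between immature and mature neutrophils are shown, since C/EBP factors bind near such genes. Each is the 80 bases before the first base of the gene, 5′ to 3′ on the strand of the gene, from the RefSeq promoter table of GRCm38. Capitals mark matches to TTNNGNAA, a loose form of the C/EBP motif, searched on both strands.
Ngp: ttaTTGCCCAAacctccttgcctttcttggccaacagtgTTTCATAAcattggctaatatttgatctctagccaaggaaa
Camp: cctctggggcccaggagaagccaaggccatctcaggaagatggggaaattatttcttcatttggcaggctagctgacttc
Ltf: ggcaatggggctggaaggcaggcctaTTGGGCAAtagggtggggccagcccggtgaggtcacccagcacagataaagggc
Chil3: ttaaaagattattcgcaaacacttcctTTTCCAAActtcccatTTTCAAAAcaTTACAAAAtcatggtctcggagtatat

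The windows lie at chr9:110419667-110419746 (plus strand) for Ngp, chr9:109849618-109849697 (minus strand) for Camp, chr9:111019191-111019270 (plus strand) for Ltf and chr3:106167565-106167644 (minus strand) for Chil3. Ngp held 2 matches, Ltf held 1, Chil3 held 3 and Camp held 0. The motif was in 10.4% of the 17606 windows of the same length taken in the same way from the table. GAGGAA, the core bound by PU.1, was in none of the 4 windows and in 7.71% of all windows. A match in letters is a description of the sequence, and no binding was measured.

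The label of the cells was held against their markers first. The members were chosen by their levels of S100a8, S100a9, Ngp and Camp, so these levels describe the choice and are not results. Of the other markers, Ltf (lactoferrin) had at least 1 UMI in 97.8% of members after each cell was thinned to 1500 UMIs, against 57.9% of mature neutrophils and 16.1% of mOSN-like cells, which were taken as the background class. Without thinning the shares were 98.9%, 66.2% and 27.0%, at median depths of 3023, 2190 and 2807 UMIs. Cebpe, which encodes C/EBP epsilon, had a UMI in 48.7% of members, 11.2% of mature neutrophils and 0.761% of mOSN-like cells after thinning. Both genes were above this background in the members. An mOSN-like cell had at least 4 of 8 mOSN markers and S100a8 and S100a9 under 5% of UMIs.

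Both classes of neutrophils lay on a continuous range. In the members, Ngp and Camp together took between 3.01% and 22.9% of the UMIs of a cell, with a median of 8.03%, and S100a8 and S100a9 took between 5.001% and 48.5%, with a median of 25.5%. Just outside the Ngp and Camp limit, 76 neutrophils lay between 2.5% and 3%, and just inside it 74 lay between 3% and 3.5%. Both sets were alike in other genes, with 15331 and 13849 CPM (UMIs of the summed cells scaled to a common total) for Retnlg, 4714 and 4175 CPM for Ltf, and 5051 and 4283 CPM for Lcn2. Further down, 470 neutrophils were between 0.5% and 3% and 420 were under 0.5%. The S100 limit held few cells at its edge, with 1 cell between 4.5% and 5%, 4 cells between 5% and 5.5%, and 13 cells in all under 5% that had Ngp and Camp at 3% or more.

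Some libraries stood apart before any comparison was made. The members of WT 3 numbered only 5, so this mouse is left out of the tests on summed counts, of the bins and of all means over 7 mice. Across the 1736 genes compared, the profiles of the members of WT 4 and null 4 had a Pearson's r of 0.965 with each other, and WT 4 had an r of 0.902 with null 3, 0.813 with WT 3 and 0.830 to 0.846 with WT 1, WT 2, null 1 and null 2. Null 4 had an r of 0.866 with null 3, 0.818 with WT 3 and 0.800 to 0.807 with those 4 mice. WT 1, WT 2 and null 2 had an r of 0.937 to 0.953 among themselves. In 3 genes of neutrophils, chosen after their values were seen, the members of WT 4 and null 4 differed from those of WT 1, WT 2, null 1, null 2 and null 3. Itgam, the integrin alpha M chain, was at 749 CPM in WT 4 and 627 CPM in null 4, 783 CPM in WT 3, and between 159 and 276 CPM in the members of those 5 mice. Cyba, the small chain of the phagocyte oxidase, was at 1341 and 956 CPM (1409 CPM in WT 3) against 2422 to 2995 CPM, and Cebpe at 385 and 313 CPM (196 CPM in WT 3) against 710 to 969 CPM. The heat map of profile likeness shows WT 4 and null 4 as a pair across genotype.

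**Figure D1:**
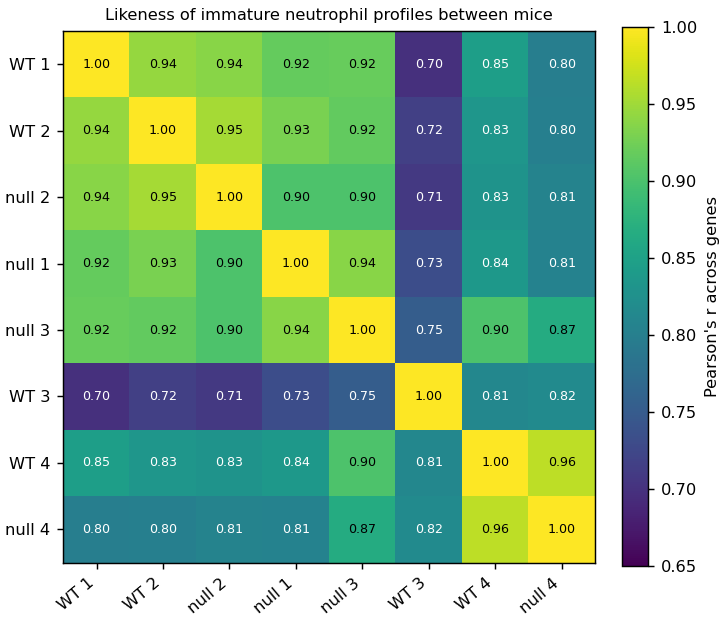
Pearson's r of log expression across 1736 genes between the summed immature neutrophils of each pair of mice, with mice on both axes and r given by colour and in each square. WT 4 and null 4 (r of 0.965) formed a pair, and WT 3, with 5 cells, had the lowest values.

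Red blood cell RNA separated the libraries in another way. At least 3 of 7 erythroid markers had a UMI in 6.17% of members of WT 1, 0% of WT 2, 12.9% of null 1 and 1.45% of null 2, and in 100% of WT 3, 98.0% of WT 4, 100% of null 3 and 99.8% of null 4. The summed level of all 7 markers in members was 338, 49.4, 2857 and 14150 CPM in WT 1 to WT 4 and 1264, 119, 17780 and 16142 CPM in null 1 to null 4. Hbb-bs, the beta chain of haemoglobin, was the most abundant of them at 3869 ± 4639 CPM (SD, n = 7 mice), and none of the 7 was at 0. In these data WT 3, WT 4, null 3 and null 4 thus formed a set with much erythroid RNA in members, and the labels do not say what the mice of a set share. Of the members, 24.6% had 4 or more of 8 mOSN markers, 10.7% had 3 or more sustentacular markers, 1.69% had 3 or more macrophage markers and 0.686% had 3 or more B cell markers. The part of this RNA in each result was not tested beyond the values given.

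Barcode sharing and deep cells were rare. Of 24809 distinct barcodes of kept cells, 372 (1.499%) occurred in more than 1 library, and 2 of the 1893 distinct member barcodes were members in more than 1. Only 34 members (1.79%) had 3 times the median UMIs or more. No doublet caller was run and no doublets were removed.

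Upf3b was checked in each mouse. In the members it was at 29.7, 18.2, 0 and 46.6 CPM in WT 1 to WT 4 and at 0.524, 0, 0 and 0.360 CPM in null 1 to null 4. WT 1, WT 2 and WT 4 were above every null mouse, and the 0 of WT 3 allows up to 117 CPM at its depth. The 0 of null 2 and of null 3 allow up to 11.2 and 3.95 CPM. The intervals and limits given for counts cover counting error only.

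The first question was how many of the cells of each mouse were immature neutrophils. They were 81 of 1832 kept cells (4.42%, 95% exact binomial interval 3.53 to 5.47) in WT 1, 115 of 1444 (7.96%, 6.62 to 9.48) in WT 2, 5 of 2791 (0.179%, 0.0582 to 0.418) in WT 3 and 148 of 3080 (4.81%, 4.08 to 5.62) in WT 4. They were 467 of 7157 (6.53%, 5.96 to 7.12) in null 1, 69 of 1334 (5.17%, 4.05 to 6.50) in null 2, 171 of 1710 (10.0%, 8.62 to 11.5) in null 3 and 839 of 5837 (14.4%, 13.5 to 15.3) in null 4. WT 3 was lowest and null 4 highest, and the genotypes overlapped, since WT 2 was above null 1 and null 2. The mean was 4.34% ± 3.20 (SD, n = 4) in WT and 9.02% ± 4.11 (SD, n = 4) in Upf3b-null mice, a difference of 4.68 percentage points that did not pass a two-sided exact permutation test (p = 0.143, the smallest possible being 0.0286). The difference was 2.89 points without null 4, and it turned to -0.392 points when members with markers of another class, red blood cells included, were not counted. Among the 4 libraries with little erythroid RNA the means were 6.19% in WT and 5.85% in Upf3b-null mice, and among the 4 with much of it they were 2.49% and 12.2%. With 2 mice against 2, an exact test cannot go below 0.333, and this split was chosen after the data were seen. Leaving out both replicates numbered 4, also chosen after seeing the data, gave a difference of 3.04 points (exact p = 0.4).

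**Figure D2:**
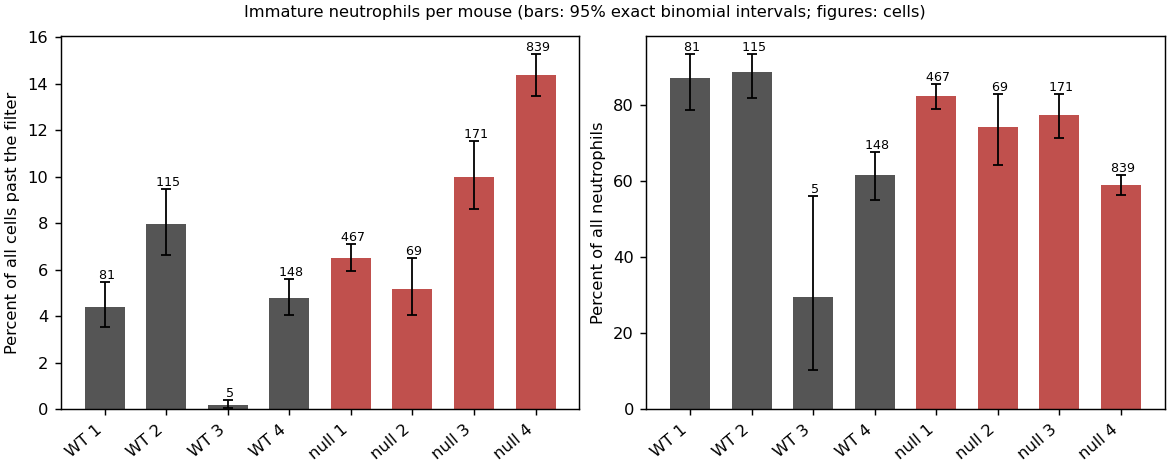
Immature neutrophils in each mouse as a percent of kept cells (left) and of neutrophils (right), with bars at the value, 95% exact binomial intervals as whiskers and the number of immature neutrophils above each bar. WT mice are grey and Upf3b-null mice red, and WT 3 holds only 5 of these cells.

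Within the neutrophils, most cells were immature in 7 of the 8 mice. The immature share of neutrophils was 87.1%, 88.5%, 29.4% and 61.4% in WT 1 to WT 4 and 82.4%, 74.2%, 77.4% and 59.0% in null 1 to null 4. The highest values, of WT 1 and WT 2, and the lowest, of WT 3 with 17 neutrophils, were all WT. The means of 66.6% ± 27.7 and 73.2% ± 10.1 (SD, n = 4 each) differed by less than the spread between mice (exact permutation p = 0.743), and without WT 3 the difference was -5.77 points. WT 4 and null 4, the pair with like profiles, had the lowest shares beside WT 3.

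The Ngp and Camp values that chose the members are given by mouse as a description. Cells with 10% or more of their UMIs from the pair were 74.1%, 74.8% and 13.5% of the members of WT 1, WT 2 and WT 4, and 68.3%, 56.5%, 55.6% and 3.70% of those of null 1 to null 4. WT 4 and null 4 had the lowest values of their genotypes.

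What set the immature cells off from the mature ones is given as a description with no test, since the Ngp and Camp limit chose both. Of 1268 genes at 100 CPM or more in either class, 116 (9.15%) were higher in immature cells in all 7 mice with 10 cells of each class, and 296 (23.3%) were lower in all 7. Over 2-fold differences made up 49 of the higher and 128 of the lower genes. The 2 classes come from the same libraries, and free RNA was not measured. Counts for a list are given over its genes at 100 CPM or more in either class, without the genes of the rule, so that they can be read beside these 2 shares.

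Most secondary granule genes were higher in immature cells. Of 16 genes of the list, which leaves out Ngp and Camp, 13 were higher in all 7 mice and 1, Mmp8, was lower. Camp, the cathelicidin, averaged 58054 ± 10735 CPM in immature and 5420 ± 2431 CPM in mature neutrophils (SD, n = 7 mice), and Ngp, a cystatin-like granule protein, 48269 ± 13941 and 5534 ± 1547 CPM. These genes served the rule. Outside it, Ltf averaged 6725 ± 782 and 1065 ± 648 CPM, a log2 difference of 2.64 with 20 CPM added. In single mice Ltf was at 7643, 7352 and 6330 CPM in WT 1, WT 2 and WT 4 and at 5473, 6356, 6476 and 7442 CPM in null 1 to null 4. These 7 values lay close together and the genotypes overlapped, whereas the mature cells of every mouse were lower.

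Chil3, a chitinase-like lectin of myeloid cells, had the largest difference outside the genes of the rule among genes higher in immature cells. It averaged 4446 ± 1064 CPM in immature and 447 ± 324 CPM in mature neutrophils, and its 7 log2 differences ran from 2.56 to 5.69. Orm1, an acute phase glycoprotein, was at 201 ± 66.7 against 10.0 ± 9.92 CPM. Lcn2, the lipocalin that binds bacterial siderophores, was at 10316 ± 3373 against 2995 ± 1229 CPM. It was at 15692, 11366 and 7587 CPM in WT 1, WT 2 and WT 4 and at 8393, 13639, 9014 and 6522 CPM in null 1 to null 4, with WT 1 highest, null 4 lowest and the genotypes overlapping. Further members of the list that were higher in all 7 mice were Anxa1 (annexin A1, 3040 against 1003 CPM), Wfdc21 (8390 against 3749 CPM), Pglyrp1, which binds bacterial peptidoglycan (3096 against 1908 CPM), and Cd177, a surface protein of neutrophil subsets (594 against 247 CPM). Mmp8, the neutrophil collagenase, went the other way at 740 ± 226 against 1436 ± 394 CPM.

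Primary granule genes did not share this pattern. Lyz2 (lysozyme) and Serpinb1a, an inhibitor of neutrophil serine proteases, were higher in immature cells in all 7 mice, 2 of 11 genes, while Ctsc, Srgn and Calr were lower in all 7. Ctsc encodes the protease that activates the granule serine proteases, and Srgn the proteoglycan that packs them. Elane, neutrophil elastase, was at 569 ± 604 CPM in immature and 1365 ± 1802 CPM in mature neutrophils and was higher in the immature cells of only 3 mice. In the members it was at 204, 857 and 8.46 CPM in WT 1, WT 2 and WT 4 and at 1745, 730, 264 and 173 CPM in null 1 to null 4. Null 1 was highest and WT 4 lowest, and the genotypes overlapped. Mpo (myeloperoxidase) was at 65.5 ± 70.8 against 366 ± 434 CPM. The cells with Ngp and Camp under 3% therefore held RNA of the earliest granules in some mice, and "mature" names only the side of the limit.

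The phagocyte oxidase and the transcription factors were more mixed. Cybb, the large membrane chain of the oxidase, Cyba and Ncf4 were higher in immature cells in all 7 mice, 3 of the 7 oxidase genes, with Cybb at 998 ± 316 against 311 ± 124 CPM. Cebpe averaged 706 ± 262 CPM in immature and 112 ± 45.5 CPM in mature neutrophils, a log2 difference of 2.47. It was at 810, 964 and 385 CPM in WT 1, WT 2 and WT 4 and at 969, 794, 710 and 313 CPM in null 1 to null 4. WT 4 and null 4 were lowest, and the genotypes overlapped. Of 5 transcription factors at 100 CPM or more, Cebpe was higher in immature cells in all 7 mice and 3 were lower, namely Fos, Cebpb (356 ± 213 against 1007 ± 625 CPM), a factor of granulopoiesis during infection, and Junb (235 ± 76.98 against 1019 ± 670 CPM).

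Genes of circulating and activated neutrophils were low in the members. Of 27 genes on that list, 15 were lower in immature cells in all 7 mice and 0 were higher. Retnlg, a resistin-like secreted protein, averaged 4014 ± 1282 CPM in immature and 21814 ± 9054 CPM in mature cells. It was at 4444, 2858 and 4045 CPM in the members of WT 1, WT 2 and WT 4 and at 2236, 5130, 5920 and 3466 CPM in those of null 1 to null 4. The genotypes overlapped, with null 3 highest and null 1 lowest. Il1b, the inflammatory cytokine interleukin 1 beta, was at 28.0 ± 14.4 against 902 ± 1209 CPM. Ccl6, a chemokine, was at 54.9 ± 29.1 against 744 ± 413 CPM, and Cxcr2, the receptor that draws neutrophils out of the marrow, at 74.5 ± 38.5 against 259 ± 114 CPM. Of 6 tertiary granule and membrane genes, Mmp9 (gelatinase B) and Adam8, a membrane protease, were lower in all 7 mice and 0 were higher.

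Marrow retention, interferon and decay genes were measured as well. Of 8 genes of marrow retention and egress, Cd177 was higher in immature cells in all 7 mice, and Cxcr4, Cxcr2 and Selplg were lower. Cxcr4, the receptor that holds neutrophils in the marrow, was at 83.2 ± 22.1 CPM in immature and 124 ± 19.0 CPM in mature neutrophils. None of the 21 interferon-stimulated genes reached 100 CPM in either class, and their summed level was 282 against 550 CPM. Of the 18 NMD factors only Rbm8a, a part of the exon junction complex, reached 100 CPM, and it was neither higher nor lower in all 7 mice. Of 11 known decay targets and stress genes 0 were higher and 2, Atf5 and Eif4a2, were lower, a share near that over all genes.

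The lower side held neutrophil genes and genes known from other cells of the OE. Gm5483 and Stfa2l1, both of the stefin family of protease inhibitors, Wfdc17, Clec4d and Dusp1 were among the 15 with the largest differences. So were Cyp2a5 (115 ± 83.8 against 801 ± 896 CPM), a cytochrome P450 known from the OE, and Clu (31.3 ± 35.1 against 310 ± 656 CPM), the secreted chaperone clusterin. Of the marker lists, 4 of 4 mOSN markers and 2 of 4 sustentacular markers at 100 CPM or more were lower in immature than in mature cells in all 7 mice. The summed sustentacular markers were at 376 CPM in immature and 2478 CPM in mature cells, and the summed mOSN markers at 1220 and 2949 CPM. Mature cells had fewer UMIs, with a median of 2190 against 3023, and the part of free RNA in these markers was not tested.

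**Figure D3:**
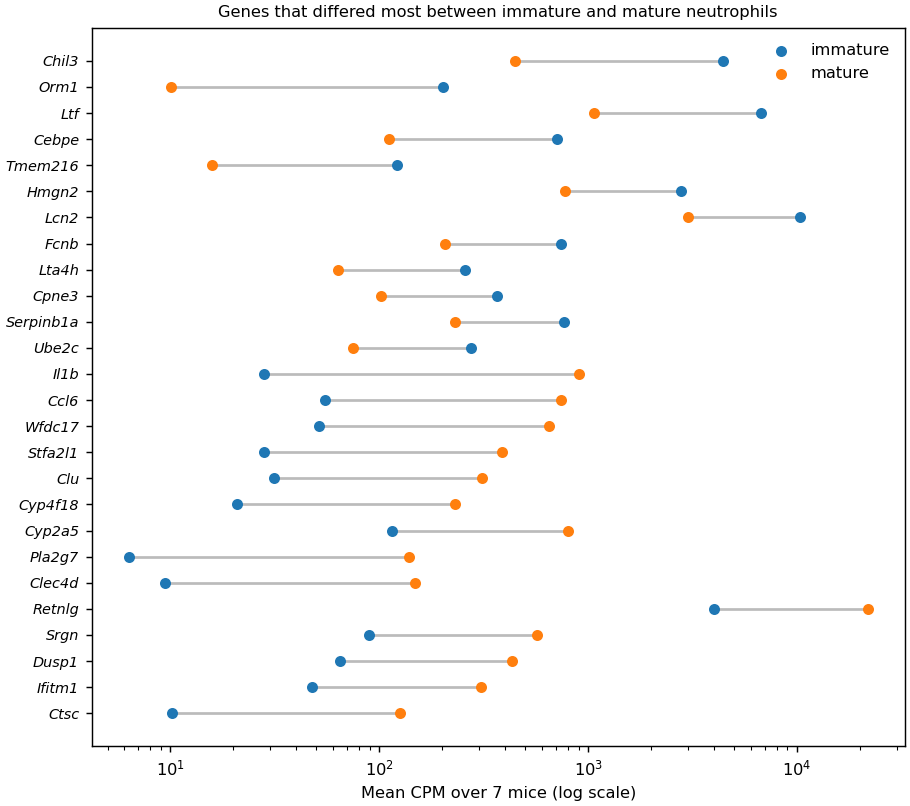
Mean CPM over 7 mice (log axis) in immature (blue) and mature (orange) neutrophils for the genes with the largest difference in each direction, leaving out predicted-gene names and the genes of the rule. Granule genes such as Chil3 and Ltf lie to the right in immature cells, and Il1b, Ccl6 and Retnlg in mature cells.

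The members also carried cell cycle RNA. Of 18 cell cycle genes, 11 were higher in immature cells in all 7 mice and 0 were lower. Mki67, which encodes the proliferation antigen Ki-67, was at 140 ± 73.4 against 32.3 ± 31.8 CPM, Ube2c, an enzyme of mitotic exit, at 275 ± 94.7 against 74.7 ± 65.7 CPM, and Hmgb2, a chromatin protein, at 3117 ± 464 against 1342 ± 371 CPM. After thinning, Mki67 had a UMI in 16.3% of members, 4.83% of mature neutrophils and 4.08% of mOSN-like cells, which do not divide. The share in members was above both.

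The share of members with UMIs of the cell cycle list was compared between genotypes over mice. A member was counted when at least 5 of its 1500 thinned UMIs came from the list, and WT 3 was left out. The share was 63.0%, 81.7% and 71.6% in WT 1, WT 2 and WT 4 and 81.2%, 52.2%, 59.1% and 71.4% in null 1 to null 4. Without thinning it was 86.4%, 94.8% and 90.5% in WT and 94.2%, 82.6%, 84.2% and 91.9% in Upf3b-null mice. The genotypes overlapped on both scales, with WT 2 and null 1 highest and null 2 lowest. The thinned means were 72.1% ± 9.40 (SD, n = 3) and 66.0% ± 12.9 (SD, n = 4), and the difference of -6.16 points did not pass (two-sided exact permutation p = 0.4, smallest possible 0.0571). Mature cells treated in the same way gave 25% to 50.5%, and mOSN-like cells 27.2% to 51.5% (42.5% of 13800 cells, 77.7% without thinning), in which H2afz and Stmn1, a histone and a tubulin-binding protein, were the most abundant genes of the list. The measure is therefore not a count of dividing cells. The direction of the genotype difference turned with the limit, to 1.67 points at 10 UMIs or more.

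Members with more Ngp and Camp differed from those with less in genes that the limits did not use. They were put into 3 bins, with 518 cells at 3 to 6%, 727 at 6 to 10% and 650 at 10% or more of UMIs, and levels were summed within each mouse. The bottom bin held 9.88%, 7.83% and 10.1% of the 81, 115 and 69 members of WT 1, WT 2 and null 2. In these mice it was under the 10 cells asked of other sums. Chil3 averaged 1315 ± 630, 3148 ± 684 and 5502 ± 1017 CPM over the bins (SD, n = 7 mice), and Cebpe 322 ± 161, 509 ± 164 and 846 ± 268 CPM. Ltf went from 4558 ± 1422 to 7155 ± 714 CPM and Fcnb, the ficolin B lectin, from 277 ± 310 to 966 ± 205 CPM. All 4 were higher in the top than in the bottom bin in 7 of 7 mice. The cell cycle list went from 5661 ± 3455 to 12894 ± 2135 CPM, also in 7 of 7 mice, and Mki67 from 56.3 ± 66.2 to 195 ± 155 CPM.

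The opposite order was seen in Retnlg of the mature neutrophil list, Mmp9 of the tertiary granule list and Mmp8 of the secondary granule list. Retnlg averaged 13798 ± 9723, 7208 ± 5245 and 1257 ± 591 CPM over the bins, Mmp8 went from 1955 ± 1099 to 229 ± 106 CPM and Mmp9 from 945 ± 594 to 175 ± 58.5 CPM. These 3 and S100a6 were lower in the top bin in 7 of 7 mice. Elane had no shared order, at 1592 ± 2611 CPM in the bottom and 401 ± 386 CPM in the top bin and higher in the top bin in 4 of 7 mice. Wfdc21 and Cd177 changed little, at 7674 and 8411 CPM and at 570 and 582 CPM. The bins share a total with the genes that define them, so a larger Ngp and Camp share leaves less of the total to other genes, and the values are a description without a test.

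**Figure D4:**
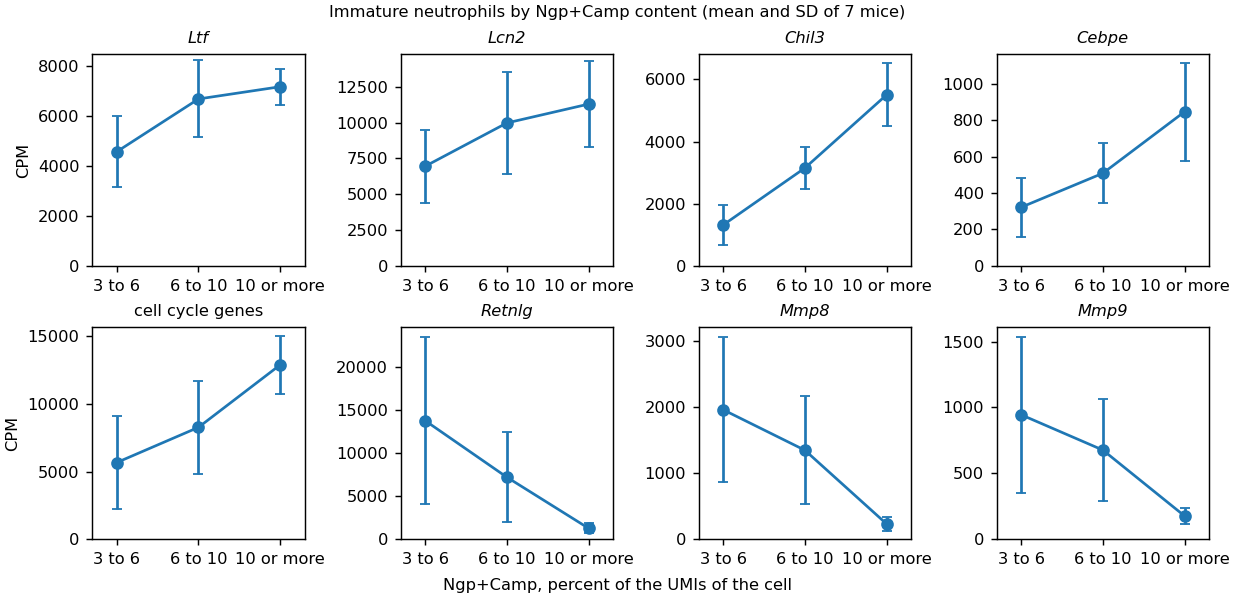
Mean CPM (points) and SD (whiskers) over 7 mice in members binned by the percent of their UMIs from Ngp and Camp, for 7 genes and the summed cell cycle list. Ltf, Lcn2, Chil3, Cebpe and the cell cycle list climb to the right, and Retnlg, Mmp8 and Mmp9 descend.

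Loss of Upf3b was then tested on the members of 3 WT and 4 Upf3b-null mice, with counts summed per mouse. By edgeR 0 of 3963 genes (0%) passed an adjusted p of 0.05, and 36 had an unadjusted p under 0.05. DESeq2 called 1 gene, Upf3b itself, which was too low for the filter of the edgeR fit. The median log2 fold change over all genes was 0.01, with 2063 genes up and 1900 down.

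The 10 genes with the smallest p did not pass, with an adjusted p of 0.9999 each by edgeR. Among them, Mif, a cytokine that acts on macrophages, was at 14.9, 7.79 and 19.0 CPM in WT 1, WT 2 and WT 4 and at 58.1, 18.6, 44.7 and 45.3 CPM in null 1 to null 4. Its log2 fold change was 1.63 with a standard error (SE) of 0.46, and null 2 lay within the WT range. Rps27rt, a retrotransposed copy of a ribosomal protein gene, was at 26.01, 62.4 and 52.9 CPM in WT and 201, 134, 101 and 79.5 CPM in Upf3b-null mice (log2 1.43, SE 0.41). These groups did not overlap, but WT 3, which was not in the fit, was above all null mice at 235 CPM in 5 cells, and the log2 fold change was 1.14 with it. Reads of such copies may come from the parent gene or other copies. Dap, which encodes a death-associated protein, was at 115, 85.7 and 44.4 CPM in WT and 47.6, 41.0, 34.2 and 31.7 CPM in Upf3b-null mice (log2 -1.11, SE 0.41), with null 1 and WT 4 in overlap. The others were Rps26-ps1, mt-Nd3, Lgals1, Fam162a, Eif3b, Map4k2 and Rpl23a-ps3, with log2 fold changes of 1.06 to 1.68.

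No gene of the lists passed the genotype test in this fit. Without Ngp and Camp, whose levels chose the members, 17 secondary granule genes were tested, 3 up and 14 down, and the median log2 fold change was -0.18 against 0.01 over all genes. Ltf had a log2 fold change of -0.13 (SE 0.29), Chil3 -0.34 (SE 0.33) and Cebpe -0.07 (SE 0.44), each with an adjusted p of 0.9999 by edgeR. Each of these 3 estimates was about as large as its SE or smaller. The median was 0.51 for 10 primary granule genes (7 up, 3 down), -0.14 for 7 oxidase genes (1 up, 6 down), 0.12 for 40 cell cycle genes (27 up, 13 down) and 0.06 for 9 NMD factors (5 up, 4 down), again with 0 called. The 6 erythroid markers tested were all up with a median of 1.09 and 0 called, and their summed level in each mouse is given above.

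Pairing mice by their replicate number, which the labels do not give as a pairing, changed this count. In a fit with the replicate number as a block, over numbers 1, 2 and 4, edgeR called 2 genes, Prtn3 (log2 1.61, adjusted p = 0.0393) and Reg3g (log2 2.27, adjusted p = 0.0393). Prtn3, the granule protease proteinase 3, was at 167, 249 and 16.9 CPM in WT 1, WT 2 and WT 4 and at 786, 395, 124 and 87.1 CPM in null 1 to null 4. Each of the 3 paired null mice was above the WT mouse of its number, while the genotypes overlapped when not paired. Prtn3 is also on the list of granulocyte-monocyte progenitor markers, of which 5 of 8 were tested without the block, all up and 0 called, with a median log2 fold change of 0.91. Without a filter on low counts and without the block, edgeR called Ctsg, another of the 8 (log2 3.45, adjusted p = 0.0231). The summed level of the 8 in members was 580, 1468, 1057 and 138 CPM in WT 1 to WT 4 and 3282, 1405, 627 and 471 CPM in null 1 to null 4, with Elane the most abundant and none at 0 over the mice. The part of such cells in the Prtn3 level was not tested. Reg3g, an antibacterial lectin of epithelia, was at 29.7, 18.2 and 29.6 CPM in WT and at 163, 22.4, 18.4 and 230 CPM in Upf3b-null mice, high in null 1 and null 4 only. It is on the list of gland and respiratory cell markers, whose summed level in members was 747, 340, 1879 and 2738 CPM in WT 1 to WT 4 and 1125, 466, 477 and 3576 CPM in null 1 to null 4. Of the 10 markers, 7 were tested without the block, 5 up and 2 down with 0 called, Obp2a was the most abundant, and none was at 0 over the mice. Reg3g was called by edgeR without the block when no filter on low counts was used (log2 2.095, adjusted p = 0.0223). Obp1a, an odorant-binding protein, went the other way from Reg3g, with a log2 fold change of -1.19 (adjusted p = 0.9999 by edgeR). The part of these cells in the Reg3g level was not tested.

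Whether the genotype acted differently in immature and mature neutrophils was tested as an interaction. In mature cells edgeR called 0 of 1195 genes (0%), with 5 at an unadjusted p under 0.05. The interaction called 0 of 4530 genes (0%), with 112 at an unadjusted p under 0.05. Without WT 4 it called 13 genes, led by Cd74, the class II invariant chain of antigen-presenting cells (log2 2.90, adjusted p = 8.68e-05 by edgeR), Krt18, an epithelial keratin (3.12), and Wfdc2 (3.20), and without both replicates numbered 4 it called these 3 only. The 13 also held G0s2, a lipolysis inhibitor on the mature neutrophil list, and Asprv1, a protease, in the other direction (log2 -2.06, adjusted p = 0.0439, and log2 -3.36, adjusted p = 0.0195, by edgeR). Cd74 and Krt18 are known from other cell classes, with the summed dendritic markers, Cd74 among them, at 141 CPM in immature and 870 CPM in mature cells.

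Transcripts that are high in immature neutrophils were also counted in cells and samples of mOSNs. In mOSN-like cells Camp was at 20.5, 32.8, 402 and 232 CPM in WT 1 to WT 4 and at 196, 14.9, 868 and 535 CPM in null 1 to null 4. S100a8 in the same cells was at 125, 132, 1602 and 1224 CPM and at 654, 69.1, 3626 and 4015 CPM. Null 3 and null 4 were highest for both, and WT 1, WT 2 and null 2 lowest. The share of mOSN-like cells with a Camp UMI ran from 4.43% in WT 1 to 53.2% in WT 3 and from 5.10% in null 2 to 95.4% in null 3. In each mouse Ngp counts over Camp counts in mOSN-like cells were set beside the same ratio in neutrophils. It was 1.35 against 0.825 in WT 1, 1.30 against 1.00 in WT 2, 0.744 against 0.617 in WT 3 and 0.861 against 0.696 in WT 4. It was 0.871 against 0.847 in null 1, 0.974 against 0.808 in null 2, 0.871 against 0.919 in null 3 and 0.740 against 0.659 in null 4. S100a8 counts over Camp counts were 6.08 against 2.36, 4.03 against 3.04, 3.99 against 5.37 and 5.27 against 4.09 in WT 1 to WT 4, and 3.34 against 2.06, 4.64 against 3.74, 4.18 against 3.59 and 7.50 against 5.15 in null 1 to null 4. Both ratios were higher in mOSN-like cells than in neutrophils in 7 of 8 mice, all but null 3 for the first and all but WT 3 for the second. All of these genes served the rule, and the S100 limit also split the mOSN-like cells from the neutrophils. The ratios are therefore a description with no test.

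The level of these transcripts in mOSN-like cells was set against the immature share of kept cells over the 8 mice. Lcn2 and Ltf were not used by the limits that chose these cells. For Lcn2, Pearson's r was 0.523 (exact permutation p = 0.195, adjusted 0.366 over 6 genes) and Spearman's rho 0.405 (exact permutation p = 0.327, adjusted 0.392). Without null 4 and WT 3, the 2 mice farthest from the median share, its r was 0.721, and with 1 mouse left out it ran from 0.215 (without null 4) to 0.809 (without WT 3). For Ltf, r was 0.05 (exact permutation p = 0.863, adjusted 0.863) and rho 0.0238 (exact permutation p = 0.977, adjusted 0.977). Its r was -0.0960 without those 2 mice, -0.708 without null 4 and 0.705 without WT 3. Neither relation passed. Camp and S100a8 helped to choose both the members and, for S100a8, the mOSN-like cells, so their r of 0.437 and 0.641 over the 8 mice is a description with no test. WT 3 was off any such line, with 0.179% immature neutrophils and more Ltf RNA in its mOSN-like cells (655 CPM) than null 4 (641 CPM). The 4 libraries with much erythroid RNA in members were also the 4 with the most Camp, S100a8 and Ltf RNA in mOSN-like cells, and each set of 4 is too small for a correlation of its own.

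**Figure D5:**
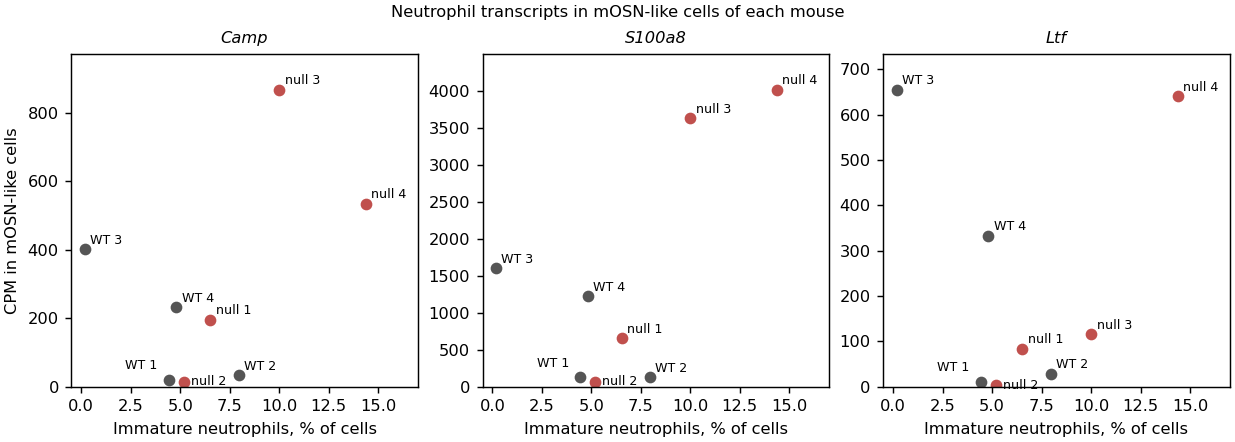
CPM of Camp, S100a8 and Ltf summed over the mOSN-like cells of each mouse against the immature neutrophil share of kept cells in percent, with WT in grey and Upf3b-null in red. Null 3 and null 4 are high for Camp and S100a8, and WT 3 is high for Ltf with almost no immature neutrophils.

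The sorted mOSN RNA-seq gave the same genes in other animals. In bulk RNA, fewer cells of a type and less RNA per cell cannot be told apart. Upf3b checked the labels, with its main transcript at 71.9, 69.8, 116 and 71.5 CPM in WT and 0, 0.391, 0 and 0 CPM in Upf3b-null samples (log2 -9.19, adjusted p = 1.67e-05 by edgeR). Over all transcripts, 7 of 11560 (0.0606%) were called higher and 19 (0.164%) lower in Upf3b-null samples, 0.225% in all. Of the 69 transcripts of the neutrophil lists, 33 were tested and 0 were called, with 29 up and 4 down and a median log2 fold change of 1.33 against 0.02 over all transcripts. This count of 0 rested on null 1. Without it edgeR called 9 of 38 list transcripts, all higher, against 433 of 12015 transcripts in all (3.6%), and Ltf was among them (log2 2.11, adjusted p = 0.0485). The others were B4galt6, Chil3, Ctsc, Ifitm3, Lyz2, Mmp8, Pglyrp1 and Retnlg. DESeq2 called 2 of 66, Cxcr2 and Ptafr, against 1.08% of all transcripts, and each other alternative called 0. Without null 3 the list median was 0.71.

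The main granule genes were high in 2 of the 4 Upf3b-null samples. Ngp was at 88.0, 80.9, 60.7 and 60.8 CPM in WT and at 59.6, 335, 512 and 73.1 CPM in null 1 to null 4, and Ltf at 125, 99.2, 87.9 and 73.1 CPM and at 60.3, 451, 762 and 104 CPM. Camp was at 35.8, 37.4, 21.8 and 31.2 CPM in WT and at 25.1, 130, 220 and 29.3 CPM in null 1 to null 4. For these 3 genes null 2 and null 3 were above all WT samples, and null 1 and null 4 were within the WT range or below it. The same 2 samples were high for genes of both immature and mature neutrophils. Chil3 was at 51.2 and 183 CPM in null 2 and null 3 and between 4.11 and 14.0 CPM in the other 6 samples, and Retnlg at 63.3 and 179 CPM against 3.11 to 15.3 CPM. Mmp8 had a log2 fold change of 4.03 (SE 1.23, adjusted p = 0.249 by edgeR) and Ngp 1.69 (SE 0.60, adjusted p = 0.304), which was 1.04 without null 3. The mOSNs were sorted on separate days, and the day of each sample was not given in the sources used here, so day and sample cannot be told apart.

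RiboTag RNA was tested in the same way. By edgeR 0 of 14216 transcripts (0%) passed, with 202 at an unadjusted p under 0.05, and DESeq2 called 16. Upf3b was at 189, 201 and 155 CPM in WT and 0.285, 0.453 and 2.97 CPM in Upf3b-null samples, and this difference did not pass either (log2 -7.62, adjusted p = 0.270 by edgeR). Of the neutrophil list 44 transcripts were tested, 27 up and 17 down, with a median log2 fold change of 0.24 against 0.0020 over all. Without null 3, 17 of 45 were up and the median was -0.08, and 0 of the list were called in any alternative. Ngp was at 40.6, 39.1 and 25.1 CPM in WT and 43.0, 52.1 and 33.8 CPM in Upf3b-null samples, and Camp at 30.6, 42.9 and 13.3 CPM and 26.1, 39.6 and 144 CPM. The genotypes overlapped for both, and only null 3 stood above WT for Camp.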

How the data were processed

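For scRNA-seq the deposited values were raw UMI counts, which the authors made with Cell Ranger on mm10 for barcodes called as cells, and for the bulk assays they were raw read counts per Ensembl transcript, made with STAR 2.5.2b on GRCm38 and featureCounts of Subread. The submitters' processing notes also name Seurat and DESeq2. Handling of duplicate reads was not given in the sources used here.

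Members and gene lists were chosen with earlier results of these data known. Counts were summed per mouse over members, for mice with at least 10 members, and tested with edgeR 4.0.16 (TMM, filterByExpr, robust quasi-likelihood F test) in R 4.3.3, with Benjamini-Hochberg adjustment over all genes and a limit of 0.05. DESeq2 1.42.0 and other settings were alternatives, and each fit was tested on simulated data. CPM are UMIs of the summed cells, or read counts of a bulk sample, scaled to a common total. TMM factors entered the fits and not the CPM printed. Cells were handled in Python 3.11.15 (pandas 2.3.3, statsmodels 0.14.6, scipy 1.17.1, numpy 2.4.6). Genotype differences over mice used two-sided exact permutation tests. Named genes were up to 15 in each direction past the limit or else the 10 with the smallest p, the 15 with the largest immature to mature difference in each direction, and members of the lists.

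In the members, deviations of same-numbered mice had an r of 0.132, 0.309 and 0.742 for numbers 1, 2 and 4. WT 1 and WT 2 correlated best with null 2, and null 1 correlated more with WT 2 (0.183) than with WT 1. In mature neutrophils the same-number r was 0.0626, -0.198, -0.172 and 0.476 for numbers 1 to 4. A pairing by number was thus clear for number 4 only, and the block was used as an alternative. This pairing comes from the data and not from the labels. Nothing in the labels says more of how the mice were related. RNA-seq and RiboTag totals were 1216784 to 3264827 and 2691023 to 7542665 counts, and 22646 of 23010 transcripts had a name in GENCODE. Of 81 list genes, 61 were in the transcript tables. P-values of the genotype tests weigh a difference against the spread between these mice or pools.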

Additional observations from a re-analysis of the deposited data

Results flagged for a closer look

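Of 65 groups of 4 samples examined for a sample far from the rest, 3 had one, and chance gives about 1 in 20. The median depth of the members of WT 3 was 3762 UMIs, above the 2706 to 2846 UMIs of the other WT mice, and rests on 5 cells. The summed stromal and endothelial markers in members of null 4 were at 132 CPM, against 39.8, 26.1 and 40.8 CPM in null 1 to null 3, and WT 4 was at 252 CPM. Elane in sorted mOSN RNA-seq was at 99.9 CPM in null 3, against 3.59, 12.1 and 6.05 CPM in null 1, null 2 and null 4 and 0 to 7.25 CPM in WT samples.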

How the results depend on the processing

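The share of kept cells kept its direction under other limits and filters, between 2.89 and 5.96 points when 1 mouse was left out, and reversed to -0.392 without cells with markers of another class, which took out nearly all members of the 4 libraries with much erythroid RNA. The immature share of neutrophils went to -6.79 points in the same setting and ran from -5.77 (without WT 3) to 13.9 points with 1 mouse left out. The difference in the share with cell cycle UMIs was 1.67 points at 10 UMIs or more, 2.77 when cells were not thinned and counted at 1% of UMIs from the list, and -11.2 to -1.35 with 1 mouse left out. For Ltf in mOSN-like cells, r turned to -0.0452 with the share of UMIs, -0.288 with 6 of 8 markers, -0.0960 without the 2 farthest mice, and -0.708 to 0.705 with 1 mouse left out. Camp, a gene of the rule, had an r of 0.302 to 0.688 with 1 mouse left out and 0.751 without the 2 farthest.

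The members' fit called 1 gene by DESeq2, 8 without a filter on low counts, 1 with the 4 genes of the rule left out and 0 to 1 with 1 mouse left out (1 without null 2). The 8 included Upf3b and the list genes Ctsg and Reg3g. The replicate block called 2 and changed no call among the shares (p of 0.375 to 1). Members without other-class markers left WT 1, WT 2, null 1 and null 2 only, with 0 calls. Mature cells gave 1 call without a filter. The interaction gave 1 without a filter, 3 without both replicates numbered 4, an alternative chosen after seeing the data, and 0 to 13 with 1 mouse left out (13 without WT 4). Sorted mOSN RNA-seq gave 244 calls by DESeq2, 43 without a filter, 15 with the replicate block, and 12 to 433 with 1 sample left out (433 without null 1), and there the numbers did not pair samples. RiboTag gave 16 by DESeq2 and 0 to 17 (17 without null 3). The causes were not tested. Of 288 values of single genes, 280 kept direction and call, and 5 reversed, all for Ltf as above. The remaining 3 had a p under 0.05 only in an alternative. For Ltf in sorted mOSN RNA-seq without null 1 this was an adjusted p. For S100a8 (r of 0.853) and S100a9 (0.883) in mOSN-like cells without WT 3 it was an unadjusted exact permutation p. Both are genes of the rule. Their p-values were not adjusted over the genes related, so a pass of the adjusted limit was not shown. Low counts left 3963 genes for the members' test.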
